A study of Mus musculus with 14 samples.

Results

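The Wnt signalling genes of the mouse form a set of 44 protein-coding genes out of 21938 in the annotation. They were chosen by gene symbol alone and comprise 19 Wnt ligands, 12 receptors (10 Frizzled receptors, Ror1 and Ror2), 9 secreted inhibitors (4 secreted Frizzled-related proteins, 4 Dickkopf proteins and Wif1) and 4 R-spondins. H3K27me3, a mark that Polycomb repressive complex 2 places on histones of silenced genes, was measured at their promoters by ChIP-seq of mouse cerebellum. The libraries used were 9, with 3 biological replicates each at P7, P14 and P60 (the postnatal day of the C57BL/6NCrl mice). Mice of both sexes carried no genetic change that the sources name, and a replicate was a pool of mice at P7, a smaller pool at P14 and a single mouse at P60, so pool size cannot be told apart from stage. A further 5 libraries of a Kdm6b experiment (2 Kdm6b-WT and 3 Kdm6b-cKO) did not lie on the same genome build and were not analysed here.

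Wnt proteins are secreted, lipid-modified ligands that bind Frizzled receptors together with co-receptors, either to stabilise beta-catenin and activate TCF/LEF target genes or to act on cell polarity without beta-catenin. Secreted Frizzled-related proteins and Wif1 bind Wnt ligands outside the cell, Dickkopf proteins 1 and 2 bind the Lrp5 and Lrp6 co-receptors, and R-spondins act in the opposite direction by keeping receptors at the cell surface. In the developing hindbrain Wnt1 acts at the midbrain-hindbrain boundary from which the cerebellum arises, and Wnt7a is a signal from granule neurons to the mossy fibres that contact them. Many developmental regulators of this kind have CpG-rich promoters, a sequence type to which Polycomb complexes are recruited.

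Promoter coverage was the percent of the window of 3 kb on each side of the transcription start site (TSS) that lay under peaks, taken for the most covered TSS of a gene in each library. A promoter with at least 1 bp under a peak was called marked. The lists differed in extent, which bears on every value below: they covered 7.38 to 15.2 Mb of the genome at P7, 3.62 to 9.26 Mb at P14 and 1.48 to 3.61 Mb at P60. P14 replicate 1, P60 replicate 1 and P60 replicate 2 stood apart, with median peak widths of 269, 134 and 149 bp against 410 to 751 bp in the other 6 lists. The main counts of changed genes are therefore given with and without these 3 libraries. Without them P60 rests on P60 replicate 3 alone, so counts from that fit are a description only. Of 15 genes of the granule cell lineage, 6 lay under no peak in any library, Gabra6, Zic1 and Zic2 among them. The share with no peak among all protein-coding genes was 69.4%. Of the same 15 genes, 4 were marked in 2 or more libraries. All 10 transcription factors of other regions were marked in 2 or more libraries. Their library means were 20.8 to 37.5% at P7 and 0.143 to 1.94% at P60. Read numbers are unknown, so no counting interval can be given.

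At the sequence level the Wnt genes were CpG-rich. The median over the 44 genes was 32.2 CpG per kb of the TSS window, against 18 over all protein-coding genes. By class it was 34.8 for ligands, 40.6 for receptors, 21.2 for secreted inhibitors and 22.2 for R-spondins. CpG density and P7 coverage had a Spearman rho of 0.108 over the 44 genes, which share libraries. The receptors were the most CpG-rich class and, as given below, the least covered at P7 and P14. RefSeq promoters (GRCm38.p6, 250 bases before and 50 after the start, written 5′ to 3′ on the strand of the gene) matched 30 of the 44 genes, and 6 are printed because they span the range of outcomes. Capitals mark CpG dinucleotides, whose median count over the 32851 promoters of the table was 7.

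The first pair are promoters that lay wholly under peaks at P7 and almost wholly outside them at P60. Wnt1 (chr15:98789607-98789906, plus strand) has 26 CpG, a number reached by 16.9% of all promoters. Wnt3a (chr11:59290702-59291001, minus strand) has 45 CpG, a number reached by 1.93%.
Wnt1: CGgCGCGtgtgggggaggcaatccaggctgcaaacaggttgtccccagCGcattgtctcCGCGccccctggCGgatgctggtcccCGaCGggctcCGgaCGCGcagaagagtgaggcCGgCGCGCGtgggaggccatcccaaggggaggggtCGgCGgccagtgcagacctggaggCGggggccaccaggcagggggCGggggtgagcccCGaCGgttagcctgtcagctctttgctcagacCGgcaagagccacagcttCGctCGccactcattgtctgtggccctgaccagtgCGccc
Wnt3a: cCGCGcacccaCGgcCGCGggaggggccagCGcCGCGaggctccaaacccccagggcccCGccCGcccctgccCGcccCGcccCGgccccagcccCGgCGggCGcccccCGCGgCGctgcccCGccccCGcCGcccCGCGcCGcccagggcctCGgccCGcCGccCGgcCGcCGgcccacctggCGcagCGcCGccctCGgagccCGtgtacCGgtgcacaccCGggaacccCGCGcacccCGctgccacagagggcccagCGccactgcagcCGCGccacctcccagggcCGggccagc

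The next pair are CpG-dense promoters with most of their mark beside the printed bases. Wnt7a (chr6:91411304-91411603, minus strand, 42 CpG) had 7.67 to 11.3% of these bases under peaks at P7, since its peak region (2537 bp, chr6:91408801-91411337) began close to the start site and ran into the gene. Fzd10 (chr5:128600856-128601155, plus strand, 45 CpG) had 0% under peaks in each P7 library and in P14 replicate 1, but 100% in P14 replicates 2 and 3.
Wnt7a: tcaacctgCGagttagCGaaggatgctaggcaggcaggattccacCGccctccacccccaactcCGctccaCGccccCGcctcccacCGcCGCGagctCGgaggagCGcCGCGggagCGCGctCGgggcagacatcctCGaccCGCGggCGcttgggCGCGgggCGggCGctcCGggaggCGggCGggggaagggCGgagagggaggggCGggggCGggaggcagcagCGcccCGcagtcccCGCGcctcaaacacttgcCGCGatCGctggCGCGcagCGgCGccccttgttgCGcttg
Fzd10: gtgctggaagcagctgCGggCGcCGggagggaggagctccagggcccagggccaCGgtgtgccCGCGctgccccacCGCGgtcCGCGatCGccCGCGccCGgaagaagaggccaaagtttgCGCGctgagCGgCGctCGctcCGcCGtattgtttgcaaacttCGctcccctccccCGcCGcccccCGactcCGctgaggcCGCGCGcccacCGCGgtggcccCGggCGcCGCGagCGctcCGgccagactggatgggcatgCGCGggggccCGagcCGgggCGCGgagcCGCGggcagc

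The last pair have fewer CpG than the others printed and opposite states. Dkk1 (chr19:30549447-30549746, minus strand, 9 CpG) had 74.3 to 100% of these bases under peaks at P7 and 47.7, 0 and 34.0% at P60. Ror1 (chr4:100095541-100095840, plus strand, 10 CpG) had none in any library.
Dkk1: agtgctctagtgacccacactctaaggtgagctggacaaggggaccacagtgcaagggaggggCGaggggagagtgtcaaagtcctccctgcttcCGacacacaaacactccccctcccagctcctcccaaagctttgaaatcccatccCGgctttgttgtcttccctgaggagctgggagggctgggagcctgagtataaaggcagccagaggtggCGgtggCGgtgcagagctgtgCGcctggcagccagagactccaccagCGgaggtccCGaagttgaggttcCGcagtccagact
Ror1: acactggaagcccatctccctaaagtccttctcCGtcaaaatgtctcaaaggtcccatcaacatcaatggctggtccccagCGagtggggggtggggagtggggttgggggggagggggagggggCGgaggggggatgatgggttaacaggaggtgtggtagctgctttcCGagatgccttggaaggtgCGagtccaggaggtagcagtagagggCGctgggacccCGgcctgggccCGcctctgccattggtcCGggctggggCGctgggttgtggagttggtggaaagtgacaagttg

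Of the 44 genes, 41 were marked in at least 1 library, and 40 were marked in 2 or more and were tested, together with 5120 genes in all. Fzd3, Ror1 and Dkk4 lay under no peak in any of the 9 libraries, and Fzd7 was marked in P7 replicate 1 alone, with 8.62% coverage. Fzd3 is a receptor of axon guidance, Ror1 a receptor tyrosine kinase for Wnt ligands, and Dkk4 a Dickkopf inhibitor. The number of marked Wnt genes was 41, 37 and 34 in the P7 libraries, 29, 34 and 36 in the P14 libraries and 16, 15 and 22 in the P60 libraries, so the P14 and P7 libraries overlapped and the P60 libraries lay below both.

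**Figure D1:**
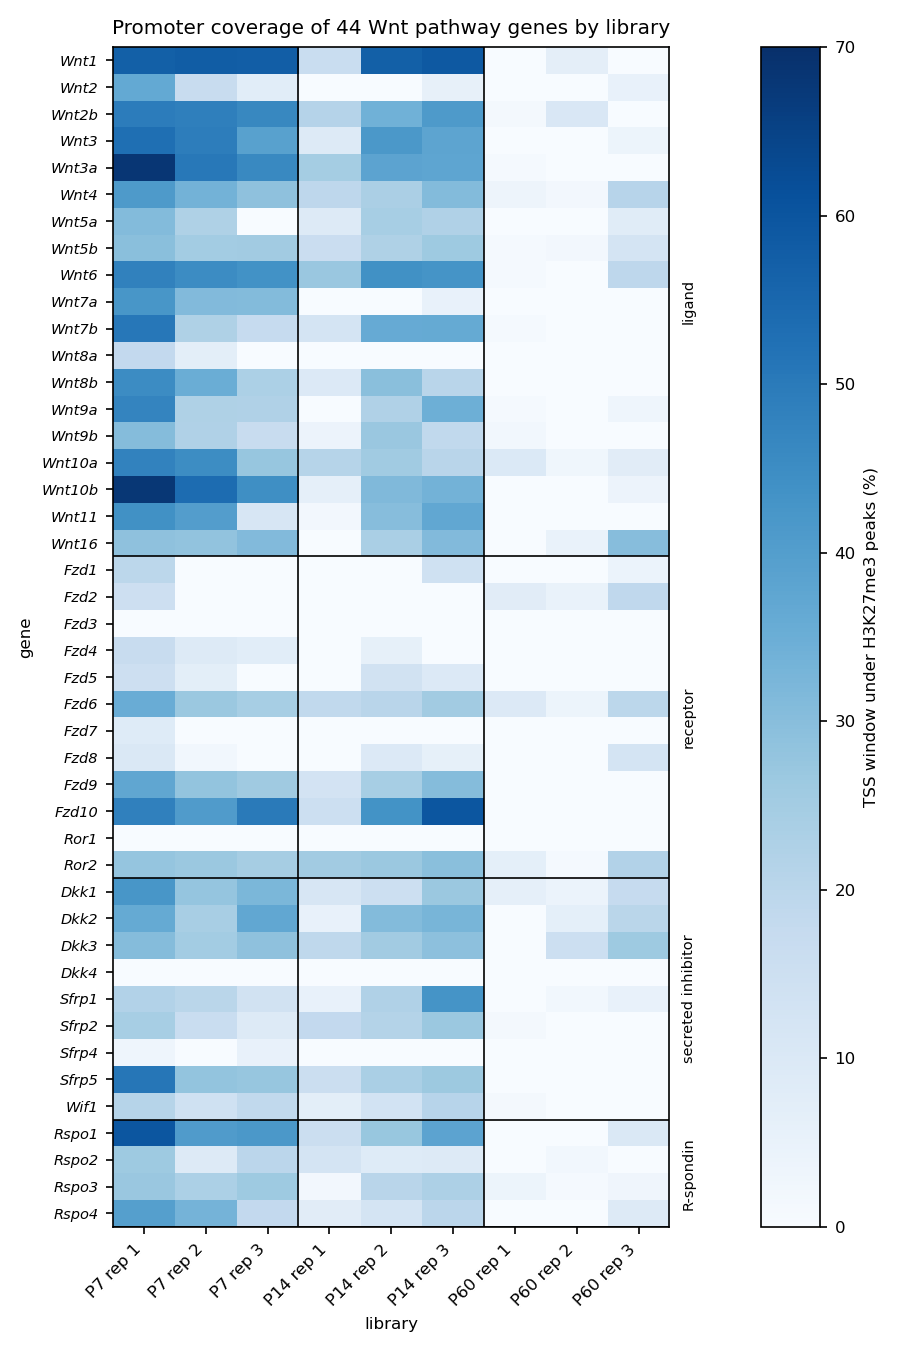
Promoter coverage (percent of the TSS window under H3K27me3 peaks, colour scale) of each of the 44 genes (rows, by class) in each of the 9 libraries (columns). Nearly all ligand rows are dark at P7, P14 replicate 1 is paler than the other P14 libraries, and the P60 columns are close to white except for rows such as Dkk3 and Wnt16 in P60 replicate 3.

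Ligand promoters carried the most mark at P7 and P14. Their mean coverage was 35.3% ± 8.36 (SD, n = 3 libraries) at P7, 21.9% ± 10.0 at P14 and 2.86% ± 2.73 at P60. Receptors had 14% ± 4.72, 10.8% ± 4.41 and 3.03% ± 2.95, and secreted inhibitors had 20.6% ± 4.36, 16.2% ± 6.91 and 3.89% ± 3.41. The order ligand, inhibitor, receptor held in all 6 libraries of P7 and P14 and in none of the 3 at P60. R-spondin means were 30.4% ± 6.66, 16.4% ± 6.59 and 2.43% ± 2.74. Over all tested genes the mean was 17.0%, 10.3% and 2.93% at the respective stages. Taken over tested genes alone, the P7 means were 35.3% for ligands, 18.4% for 9 receptors, 23.2% for 8 inhibitors and 30.4% for R-spondins. Receptor promoters were also marked less regularly: 5 of the 12 receptors but 17 of the 19 ligands were marked in all 3 P7 libraries.

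Expressed as a share of the P7 mean, ligands kept 62.0% at P14 and 8.10% at P60, and R-spondins 54.0% and 8.0%. Receptors kept 77.0% at P14 and 21.6% at P60, inhibitors 78.6% and 18.8%, and all genes tested 60.7% and 17.2%. The sign of the change depended on the scale for 2 classes. Coverage was divided by each library's mean over all genes and multiplied by the mean over all libraries, which gives rescaled points. The P7 minus P60 difference then stayed positive for ligands and R-spondins (12 and 11.4 rescaled points). It turned to -1.12 for receptors and -1.11 for inhibitors. Because the tissue was whole cerebellum, fewer cells carrying the mark and less mark per cell cannot be told apart. Neither can be told apart from the smaller extent of the P60 peak lists, whose read depth is unknown.

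**Figure D2:**
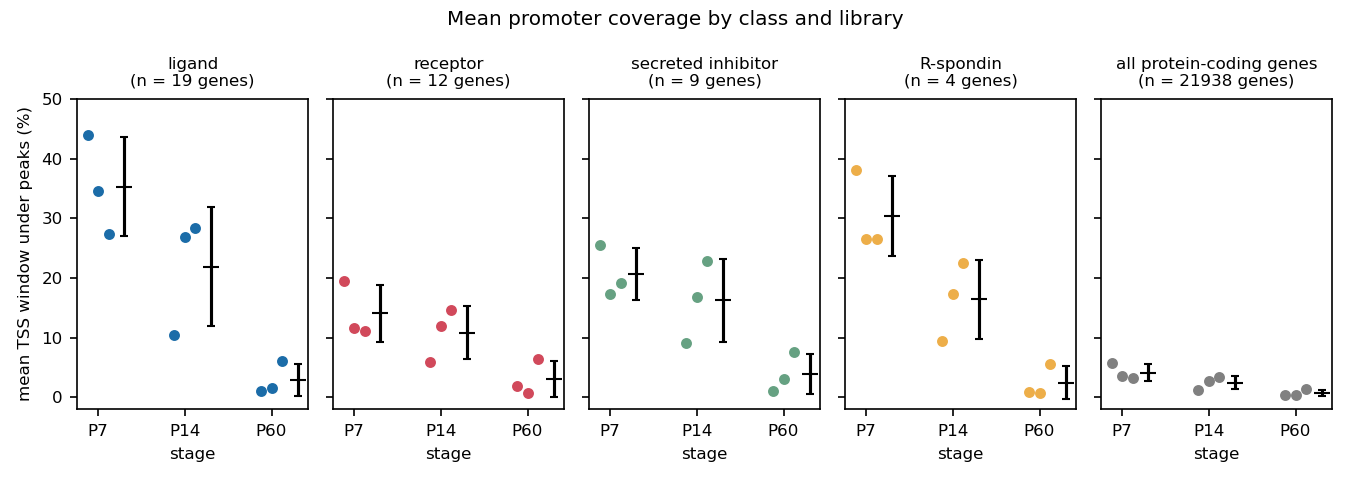
Mean promoter coverage (percent of the TSS window) of each class in each library (points), with the mean and SD over the 3 libraries of a stage (black), beside all 21938 protein-coding genes. The P60 points of the 4 classes lie between 0.767 and 7.63% and below every P7 point of that class, and P14 replicate 1 is the lowest P14 point in each panel.

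Peaks sat close to the start site and leaned into the gene. Averaged over all ligands, the most covered 200 bp bin was the first after the TSS at P7, with 81.6% of the bin under peaks, and the same bin reached 61.0% at P14. For receptor promoters the maximum was 42.7% at P7 and for secreted inhibitor promoters 75.3%, both in the bin that began 600 bp after the start. Over the 40 tested genes the 3 kb after the TSS held more peak sequence than the 3 kb before it in all 9 libraries. In P7 replicate 1 the mean was 46.4% after and 25.7% before, a ratio of 1.80, and the ratio in the 5120 genes tested was 1.59 in the same library. This lean was shared with other marked genes, whose ratio was 1.46 to 1.94 over the 9 libraries. Beyond 3 kb little mark was found, with 2.41% or less of the flanks between 3 and 10 kb covered in any library.

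**Figure D3:**
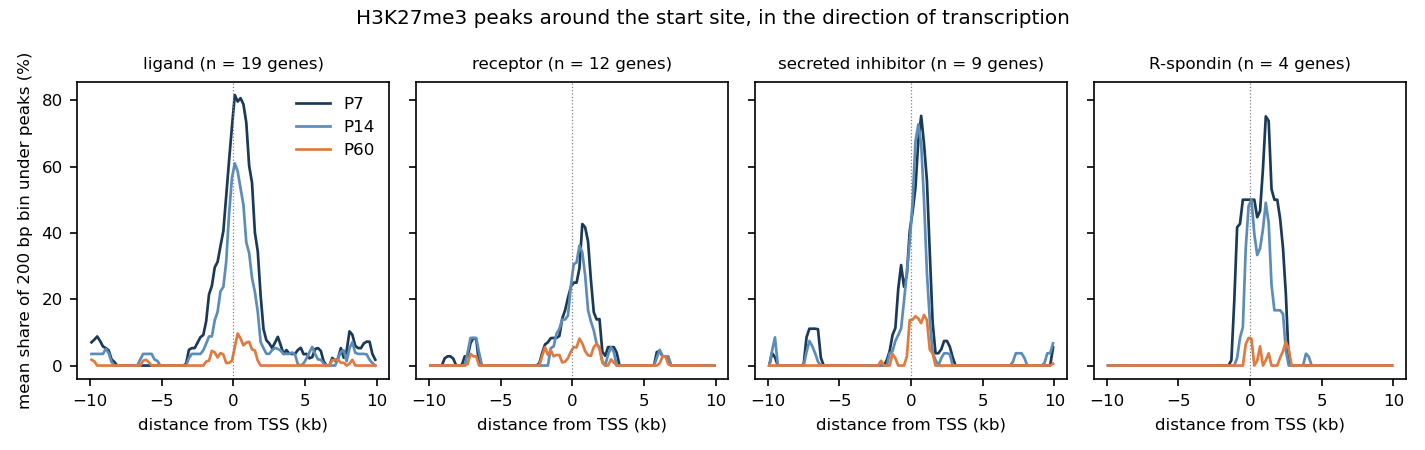
Mean share of each 200 bp bin under H3K27me3 peaks (percent) against distance from the TSS in kb, read in the direction of transcription, for each class and stage (lines, mean over 3 libraries). Ligands peak at 81.6% just after the start at P7, and secreted inhibitor promoters reach 75.3% at P7 and 72.7% at P14.

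The comparison of P7 with P60 asked which promoters had lost or gained mark between the neonatal and the adult cerebellum. Of the 40 Wnt genes tested, 30 fell (75%) and none rose, by limma with Benjamini-Hochberg adjustment over all 5120 genes at an adjusted p below 0.05. Over all tested genes 45.8% fell and 0.605% rose. Of the 10 transcription factors of other regions 7 fell (70%) and none rose, a share close to that of the Wnt genes. The 44 Wnt genes also had more mark to lose, with a mean P7 coverage of 26.05% against 17.0% over all tested genes. The count of risers was also 0 among the Wnt genes at an unadjusted p below 0.05, against 49 among all genes. By class, 16 of 19 ligands, 5 of 9 receptors, 5 of 8 inhibitors and 4 of 4 R-spondins fell. The median differences were -31.8, -11.0, -16.8 and -25.1 percentage points, and that of all genes tested was -12. Every P7 library lay above every P60 library at 31 of the 40 genes (77.5%), the 30 that fell and Sfrp1, and at 52.1% of all genes tested.

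How much of this remained depended on how the lists were equalised. Leaving out the 3 libraries of narrow peaks leaves P60 replicate 3 as the only P60 library, so the counts of that fit are a description only. Without the 3 libraries of narrow peaks 10 Wnt genes fell (Fzd9, Fzd10, Rspo3, Wnt1, Wnt2b, Wnt3, Wnt3a, Wnt6, Wnt7a and Wnt10b), that is 7 of 19 ligands, 2 of 9 receptors, 0 of 8 inhibitors and 1 of 4 R-spondins, and 8.08% of all genes. With every list cut to the same covered length only 17 Wnt genes could be tested, of which 4 fell (Fzd6, Sfrp5, Wnt4 and Wnt6). Of all genes tested 15.4% fell at that setting, and of all calls 83.6% were falls against 98.7% on the unscaled values. With coverage divided by the library mean 11 fell, 21.4% of all genes did, Fzd2 rose, and falls made up 79.9% of all calls.

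Among the ligands, Wnt1 had nearly equal coverage in the P7 libraries, at 57, 57.7 and 57.6%. At P14 its coverage was 16.3, 57 and 58.9%, and at P60 it was 0, 6.57 and 0%. Replicates 2 and 3 of P14 were thus at the P7 level and no P60 library came near it. The P7 to P60 difference was -55.3 ± 10.2 points (SE; limma adjusted p = 0.00195), the largest of any Wnt gene, although it turned to 2.19 points with every list cut to the same covered length. Its merged peak region spanned 3840 bp (chr15:98789322-98793161), from just upstream of the gene across most of its length.

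Wnt3a, a ligand that acts through beta-catenin, had 68.2, 50.4 and 46.0% at P7, 24.7, 38.1 and 37.5% at P14 and 1.05, 0 and 0% at P60. The 3 stages did not overlap, and the gene fell by 54.5 points from P7 to P60 (limma adjusted p = 0.000716). It was also 1 of the 2 Wnt genes that changed from P14 to P60, where it fell by 33.1 ± 7.12 points (limma adjusted p = 0.0459). Wnt10b showed 68.1, 53.8 and 44.5% at P7, 6.07, 31.4 and 33.4% at P14 and 0, 0 and 3.98% at P60. Its stages did not overlap either, and it fell by 31.9 ± 8.31 points from P7 to P14 (limma adjusted p = 0.0310).

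Wnt3, which Purkinje cells are known to make, went from 52.9, 49.1 and 38.9% at P7 to 8.85, 41.8 and 38.0% at P14 and 0, 0 and 3.75% at P60. Wnt2b went from 49.3, 48.5 and 46.4% to 21.2, 34.1 and 41.1% and then 1.13, 10.6 and 0%. Both fell from P7 to P60 (limma adjusted p = 0.00179 and 0.000872), with all P7 libraries above all P60 libraries, but the Wnt2b difference turned to 3.53 points with every list cut to the same covered length. Wnt7b, a partner of Wnt7a in brain vessel growth, had 50.6, 22.7 and 17.4% at P7, 12.1, 35.8 and 36.3% at P14 and 0.85, 0 and 0% at P60. Its P7 and P14 libraries overlapped widely, while its fall from P7 to P60 (limma adjusted p = 0.0172) was lost without P7 replicate 1 (adjusted p = 0.0601).

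Wnt5a and Wnt16 were among the 3 ligands, with Wnt8a, that did not pass the test from P7 to P60. Wnt5a, the main ligand of the beta-catenin-independent branch, had 30.7, 22.6 and 0% at P7, 9.28, 24.1 and 22.2% at P14 and 0, 0 and 7.98% at P60. The unmarked P7 replicate 3 set its spread, and without it the limma adjusted p was 0.0105 in place of 0.111. Wnt16 had 28.9, 28.4 and 31.1% at P7, 0, 23.6 and 31.1% at P14 and 0, 4.82 and 30.1% at P60. Its value in P60 replicate 3 was within the P7 range, and without that library the adjusted p was 0.0257 in place of 0.119. The other ligand values are in the map of coverage by gene and library, with P60 means from 0 (Wnt8a, Wnt8b and Wnt11) to 8.58% (Wnt4).

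Wnt7a stood out in the comparison of P7 with P14. It had 42.3, 31.1 and 30.8% at P7, 0, 0 and 5.15% at P14, and no peak in any P60 library. The change was -33.0 ± 4.53 points (limma adjusted p = 0.00265), and P14 coverage was 4.94% of the P7 mean. Wnt7a was marked in 3 P7 libraries, 1 P14 library and no P60 library. It thus met the filter of 2 libraries only through P7, where it was high, and its call stands as a description only. Of 1954 genes that were marked in all P7 libraries with a P7 mean of at least 20%, 5.78% kept as little or less. The 28 Wnt genes of that kind kept a median of 64.8% and all 1954 a median of 61.0%. Next above Wnt7a among the Wnt genes came Wnt2, with 36.5, 16.7 and 7.63% at P7 and 0, 0 and 5.55% at P14, which did not pass the test (limma adjusted p = 0.0812).

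From P7 to P14 as a whole, 2 of 40 Wnt genes fell (Wnt7a and Wnt10b) and none rose, against 11.7% of all tested genes that fell and 0.352% that rose. At an unadjusted p below 0.05 the counts for the Wnt genes were 12 (30.0%) and 0, against 27.8% lower and 2.81% higher among all genes. The count of falls was 8 of 39 without P7 replicate 3, when 19.6% of all genes fell, and 1 without P7 replicate 1, P14 replicate 1, P14 replicate 2 or any single P60 library (3.50 to 11.9% of all genes), and none fell without the 3 libraries of narrow peaks. The fit without those 3 libraries called no gene of any kind at this step, so its zero is not particular to the Wnt genes. With every list cut to the same covered length no Wnt gene fell and Rspo1 rose. Of all genes 6.22% fell and 58 rose at that setting. Wnt7a fell in each fit that left out 1 library, and Wnt10b in those without P7 replicate 3 or P14 replicate 3. In 11 of 40 genes (27.5%) every P7 library lay above every P14 library, against 27.2% of all genes tested.

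From P14 to P60, 2 of 40 fell (Wnt3a and Sfrp2) and none rose, against 2.07% that fell and 0% that rose among all tested genes. At an unadjusted p below 0.05, 22 Wnt genes (55.0%) were lower and 0 higher, against 24.7% lower and 0.781% (40 genes) higher among all genes. Every P14 library lay above every P60 library at 22 of 40 Wnt genes (55.0%) and at 25.7% of all genes tested. The count of falls turned on P14 replicate 1: without it 21 Wnt genes fell, Wnt3a and Sfrp2 among them, as did 21.9% of all genes. It was 7, again with Wnt3a and Sfrp2, without P7 replicate 1 (7.58% of all genes). Without P60 replicate 3 it was 3 (Ror2, Wnt5b and Wnt6), beside 3.97% of all genes. It was 0 without P7 replicate 2, P7 replicate 3, P14 replicate 2, P14 replicate 3, P60 replicate 1 or P60 replicate 2. In those fits 0% of all genes fell. Without the 3 libraries of narrow peaks P60 rests on a single library, so that fit says little about this step.

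**Figure D4:**
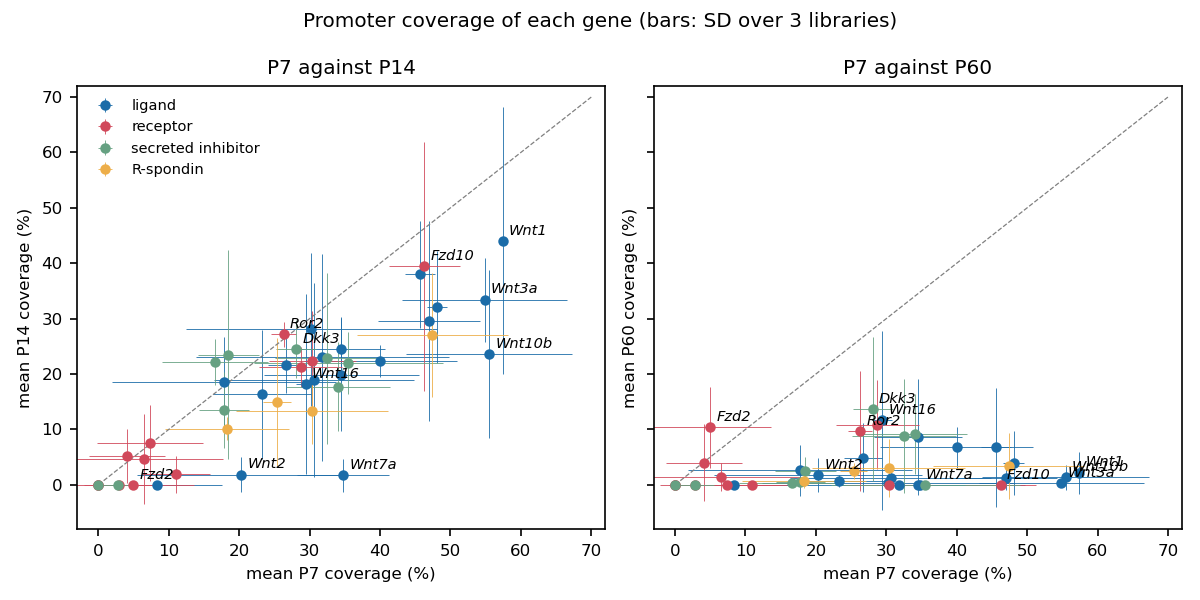
Mean promoter coverage of each gene at P7 (x axis, percent) against P14 (left) and P60 (right), with SD over 3 libraries as bars, coloured by class, and equality as a dashed line. Wnt7a (34.7% at P7, 1.72% at P14) and Wnt2 lie near the floor at P14, whereas at P60 nearly all genes do and Fzd2 lies above the line.

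Among the receptors coverage ranged from 0 to 59.8%. Fzd10 had 48.3, 40.5 and 50.0% at P7, 15.3, 43.3 and 59.8% at P14 and 0% in all P60 libraries. The value in P14 replicate 3 exceeded every P7 value, and the drop to P60 passed the test (-46.3 ± 9.45 points, limma adjusted p = 0.00307), though not with windows of 1 kb (adjusted p = 0.0942). At P7 the printed promoter bases lay between covered stretches, whereas at P14 replicates 2 and 3 the peak ran across them. Fzd9 fell from 37.4, 28.0 and 25.9% at P7 to 12.7, 24.2 and 30.4% at P14 and 0% in all P60 libraries (limma adjusted p = 0.00181 from P7 to P60). Fzd4, the receptor of Norrin in retinal and cerebellar vessels, had 16.5, 8.90 and 7.55% at P7, 0, 5.80 and 0% at P14 and 0% at P60. Its fall from P7 to P60 passed (limma adjusted p = 0.0214) but did not do so without any 1 of the P60 libraries (adjusted p = 0.0513 to 0.0739). Fzd4 also met the filter of 2 libraries only through P7, so its call stands as a description only.

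Fzd6, a receptor of planar polarity, had 35.4, 26.6 and 24.3% at P7, 18.3, 20.3 and 25.3% at P14 and 9.30, 3.63 and 19.5% at P60. It fell from P7 to P60 (-17.9 ± 5.60 points, limma adjusted p = 0.0221). With coverage divided by the library mean, however, the difference was 20.8 rescaled points in the opposite direction (limma adjusted p = 0.0999). The fall did not pass without P7 replicate 1, P60 replicate 1 or P60 replicate 2 (adjusted p = 0.0672 to 0.109). Ror2, a receptor tyrosine kinase for Wnt5a, had 27.9, 26.6 and 24.5% at P7 and 25.3, 26.6 and 29.7% at P14, so these stages overlapped. At P60 it had 6.35, 0.95 and 21.9%. Its fall from P7 to P60 (limma adjusted p = 0.0359) changed sign under both scalings. The difference was 0.317 points at the same covered length and 11.2 rescaled points with coverage divided by the library mean. The fall was lost without any single P7 library, P14 replicate 2, P60 replicate 1 or P60 replicate 2 (adjusted p = 0.0518 to 0.163). It was also lost with the replicate number as a block (adjusted p = 0.0605).

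Fzd2 went the other way. It had 14.9, 0 and 0% at P7, 0% in all P14 libraries and 7.67, 4.77 and 18.7% at P60, where it was 1 of 8 Wnt genes marked in all 3 libraries and the only 1 of those with no mark at P14. The P14 to P60 difference was 10.4 ± 4.88 points (limma adjusted p = 0.209) and did not pass. With coverage divided by the library mean Fzd2 was higher at P60 than at P7 (limma adjusted p = 0.00651). That scaling raised P60 values relative to P7, since library means over all genes were 0.345 to 1.34% at P60 and 3.13 to 5.70% at P7. Fzd2 was marked in 1 P7 and no P14 library, so it met the filter of 2 libraries only through P60. Its call stands as a description only. The peak region was 1013 bp (chr11:102605443-102606455). Fzd1, Fzd5 and Fzd8 were marked in 3 to 5 of the 9 libraries, with means below 8% at every stage, and none passed a test.

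Of the inhibitors, Sfrp5 and Wif1 lost their mark in full or nearly so. Sfrp5 had 51.0, 28.1 and 27.5% at P7, 15.7, 23.6 and 26.5% at P14 and 0% in all P60 libraries (-35.5 ± 6.50 points from P7 to P60, limma adjusted p = 0.00187). Wif1 had 21.0, 14 and 18.5%, then 6.87, 13.1 and 20.5%, then 1.28, 0 and 0% (limma adjusted p = 0.00948). In both, no P60 library reached the lowest P7 or P14 library. Sfrp2 was higher on average at P14 than at P7, with 24.2, 16.2 and 9.27% at P7, 18.3, 21.6 and 26.6% at P14 and 1.22, 0 and 0% at P60. The rise to P14 was within the spread of the libraries (limma adjusted p = 0.447), and from P14 to P60 it fell by 21.8 ± 4.84 points (limma adjusted p = 0.0472). Its fall from P7 to P60 (limma adjusted p = 0.0183) did not pass without P60 replicate 1 or P60 replicate 2 (adjusted p = 0.0549 and 0.0639).

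Dkk1, Dkk2 and Dkk3 had P60 means of 9.20, 8.85 and 13.7%, against at most 2.42% in the other inhibitors. Dkk1 had 42.2, 27.7 and 32.1% at P7, 11.3, 15.1 and 26.7% at P14 and 6.03, 4.15 and 17.4% at P60. Dkk2 had 36.4, 24.0 and 37.2% at P7, 4.93, 30.8 and 32.7% at P14 and 0, 6.40 and 20.2% at P60. Both fell from P7 to P60 (limma adjusted p = 0.00775 and 0.0340). Both changed sign with coverage divided by the library mean (11.2 and 6.81 rescaled points), as Dkk2 did at the same covered length (6.06 points). Dkk2 did not pass without P7 replicate 1, P7 replicate 3, P60 replicate 1 or P60 replicate 2 (adjusted p = 0.0913 to 0.128). Dkk3, a divergent family member, had 30.4, 25.0 and 28.8% at P7, 18.9, 25.2 and 29.3% at P14 and 0, 15.1 and 26.0% at P60, the highest P60 mean of the 44 (13.7% ± 13.1). Its P60 replicate 3 lay within the P7 range, and its change from P7 to P60 did not pass (limma adjusted p = 0.0930), but did without that library (adjusted p = 0.0206).

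All 4 R-spondins fell from P7 to P60. Rspo1 had 59.8, 40.7 and 41.8% at P7, 15.8, 27.2 and 38.2% at P14 and 0, 0 and 10.4% at P60, a difference of -44.0 ± 7.50 points (limma adjusted p = 0.00140). Rspo4 had 39.4, 33.3 and 18.3%, then 7.85, 12.5 and 19.8%, then 0, 0 and 9.13%. Both were lowest in P60 replicates 1 and 2 and kept some mark in P60 replicate 3. Rspo3 had 26.9, 23.2 and 26.1% at P7, 1.65, 20.5 and 22.8% at P14 and 3.73, 0.95 and 2.87% at P60, so it stayed marked in all 9 libraries at a low level. Rspo2 had 26.1, 8.83 and 19.9%, then 12.5, 8.7 and 9.22%, then 0, 2.12 and 0%, and its P7 and P14 libraries overlapped.

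The genes marked in all 9 libraries were Wnt4, Wnt5b, Wnt10a, Fzd6, Ror2, Dkk1 and Rspo3, drawn from every class. Those marked in all P7 libraries and in no P60 library were Wnt7a, Wnt8b, Wnt11, Fzd4, Fzd9, Fzd10 and Sfrp5. These were 7 genes each of the 40 Wnt genes marked in 2 or more libraries. Of all 5120 genes so marked, 620 had the first pattern and 1265 the second. The highest-ranked peak (by −log10 q) over a Wnt promoter was 1834 bp wide in the median in P7 replicate 1 (41 genes) and 100.5 bp in P60 replicate 1 (14 genes).

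Of the Wnt ligands, 8 lie in pairs within 50 kb of each other, and no pair shared a merged peak region. Wnt6 and Wnt10a (start sites 21471 bp apart) had 47.9 and 47.6% in P7 replicate 1, 45.2 and 44.9% in P7 replicate 2 and 43.7 and 27.6% in P7 replicate 3. Wnt10b and Wnt1 (11731 bp apart) parted most at P14, at 31.4 against 57% in replicate 2 and 33.4 against 58.9% in replicate 3. In the P7 libraries Wnt10b was above Wnt1 in replicate 1 and below it in replicates 2 and 3. Wnt3a exceeded its neighbour Wnt9a in all 6 libraries of P7 and P14, and Wnt3 exceeded Wnt9b in the same 6.

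**Figure D5:**
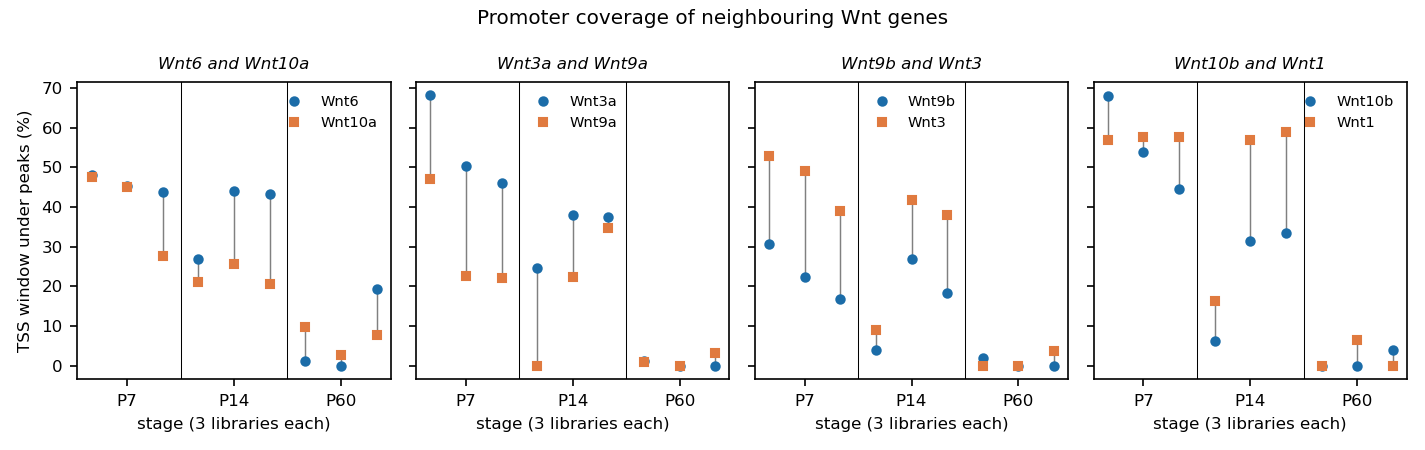
Promoter coverage (percent of the TSS window) of 4 pairs of neighbouring Wnt genes in each of the 9 libraries, with a line joining the pair within a library. Wnt3a lies above Wnt9a and Wnt3 above Wnt9b in every P7 and P14 library, and all 8 genes lie at 19.2% or less at P60.

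The other genes of the pathway were counted in the same way. Of 72 listed genes 71 were in the annotation and 33 were tested, of which 17 fell and none rose from P7 to P60 (0 higher at an unadjusted p below 0.05), with a median difference of -16.9 points. The share that fell was 51.5%, near the 45.8% of all tested genes, and without the 3 libraries of narrow peaks 2 of 32 fell and 1 (Draxin, named after its value was seen) rose, with P60 then resting on a single library. Among the transcription factors and nuclear partners 6 of 7 tested genes fell, including Tcf7 (45.7, 40.4 and 35.9% at P7, 1.95, 0 and 4.92% at P60) and Sp8 (37.9, 37.3 and 33.8% at P7, 27.1, 36.4 and 34.2% at P14, 0% at P60). Of the cytoplasmic genes 14 of 20, Axin2, Apc and Gsk3b among them, lay under no peak in any library, as did 69.4% of all protein-coding genes, and 4 were tested. The count of falls over tests was 4 of 6 for co-receptors and membrane proteins, 3 of 9 for secretion and extracellular proteins and 2 of 7 for planar polarity.

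At the step from P7 to P14, Lgr5 (an R-spondin receptor, 36.0, 29.8 and 4.70% at P7 and 0% in all later libraries) and Ankrd6 (42.7, 33.9 and 17.0% at P7, then 1.65, 0 and 3.02%) fell (limma adjusted p = 0.0411 and 0.00985). Prickle2, a planar polarity protein, rose from 0% in all P7 libraries to 10.5, 28.2 and 23.3% at P14 (limma adjusted p = 0.0200). Its P60 values were 3.47, 0 and 6.47%. Lgr5, marked at P7 alone, and Prickle2, with no mark at P7, entered the test only through the libraries in which they were high, so their calls stand as a description only. None of the 3 passed without the 3 libraries of narrow peaks.

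Markers of several cell types in the same libraries also lost mark between P7 and P60. In the granule lineage 1 of 4 tested genes fell. Of the markers tested, the number that fell was 5 of 5 for unipolar brush cells, 5 of 7 for inhibitory interneurons, 3 of 4 for Purkinje cells, 3 of 5 for the oligodendrocyte lineage, 2 of 4 for endothelial and mural cells, 1 of 5 for astrocytes and Bergmann glia and 0 of 1 for microglia, beside 45.8% of all tested genes. Without the 3 libraries of narrow peaks P60 rests on a single library, so that fit says little about these markers. Library means of the unipolar brush cell list went from 14.9 to 34.2% at P7 to 0.287 to 0.467% at P60, and those of the Purkinje list, in which Itpr1, Pcp2 and Slc1a6 lay under no peak, from 7.49 to 16.0% to 0.479 to 1.48%. The part of cell makeup in the Wnt results was not tested.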

How the data were processed

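Cerebellar H3K27me3 ChIP-seq libraries were sequenced as single ends. The submitters' notes name FastQC, Trimmomatic 0.38, STAR 2.7.2b with the mm10 build, MACS2 2.1, bedtools 2.25.0 and DESeq2 1.36.0. The authors deposited 1 broad peak list per library, called with no named input library, giving for each peak a fold enrichment (ratio), −log10 p, −log10 q and a score. Peaks with a −log10 q as low as about 1 are present in the deposited lists, below the threshold that the methods state. The enrichment, −log10 and score values are set within a library and served only to rank or filter peaks. No source used here gives the read depth.

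GENCODE vM21 start sites (GRCm38) were used for all protein-coding genes. Coverage of the TSS window in percent was fitted with limma 3.58.1 (R 4.3.3) with trend and robust variance over the 9 libraries of the age series and 5120 genes marked in 2 or more of them, with stage as the factor, and p-values were adjusted by the Benjamini-Hochberg method over all of them. The step was tested on simulated data. P-values measure the spread between replicates, which are pools of mice or single mice. The genes given library by library were, in each class, up to 5 with the largest P7 to P60 difference past the threshold, up to 4 with the highest P60 mean, those that passed from P7 to P14, and Wnt1, Wnt3, Wnt5a, Wnt7a and Wnt7b. Wnt2 and Ror1 were named after their values were seen, as were the genes given in single patterns. Members and lists were chosen with earlier results of these data known. Alternatives were other peak thresholds, windows, start sites, filters, scalings, a replicate block and leaving out libraries.

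The Kdm6b-WT and Kdm6b-cKO lists held positions that do not lie on GRCm38: 14.6 to 17.5% of their length fell in GRCm38 TSS windows, which take 9.05% of the genome, against 44.8 to 54.7% for the P7 and P14 lists and 18.6, 28.1 and 47.3% for the P60 lists. The last peak on chromosome X ended at 169326640 to 169326711 in these 5 lists and at 170881279 to 170881401 in all 9 lists of the age series. Coordinates were not converted, so the planned comparison between them was not run. H3K27me3 peaks do not check the Kdm6b deletion.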

Additional observations from a re-analysis of the deposited data

Results flagged for a closer look

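A signal appeared in lists that no comparison used: the Kdm6b-cKO lists covered 18.4 Mb on average (13.1 to 22.1 Mb, n = 3) and the Kdm6b-WT lists 2.86 and 6.40 Mb. This difference in extent was not tested.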

How the results depend on the processing

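Falls from P7 to P60 numbered 30 and were 7 at a −log10 q minimum of 4, 11 with coverage divided by the library mean, 4 with every list kept to the same covered length, 10 without the 3 libraries of narrow peaks (chosen after seeing the data), and 22 to 31 when 1 library was left out. In the first 4 of these settings each gene called was among the 30. The fit without the 3 libraries of narrow peaks has a single P60 library. Rises numbered 1 (Fzd2) with coverage divided by the library mean. Falls from P7 to P14 (2) were 0 at −log10 q of 4, 1 with 5 kb windows, 1 with coverage divided by the library mean, 0 at the same covered length, 0 without the narrow libraries and 1 to 8 when 1 library was left out, and at the same covered length 1 gene (Rspo1) rose. Falls from P14 to P60 (2) were 6 and 0 at −log10 q of 2 and 4, 11 and 0 with windows of 1 and 5 kb, 7 with the gene's 5 prime end alone, 1 at the same covered length, 0 and 7 for genes marked in at least 1 or 3 libraries, 8 with coverage divided by the library mean, which also gave 1 rise, 8 with no trend and no robust step, 0 without the narrow libraries and 0 to 21 when 1 library was left out. Of all tested genes 2.07% fell from P14 to P60 in the main fit. The share was 8.83% and 0% at −log10 q of 2 and 4, and 11.8% and 0% with windows of 1 and 5 kb. It was 4.65% with the 5 prime end alone, 5.61% at the same covered length and 8.44% with coverage divided by the library mean. It was 0.179% and 5.95% for genes marked in at least 1 or 3 libraries, and 6.84% with no trend and no robust step. At −log10 q of 4, 26.0% fell from P7 to P60. The cause of these changes in counts and shares was not tested.

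Replicate numbers recur across stages but did not pair the libraries: deviations of same-number libraries correlated at -0.216 to 0.249, those of others at -0.265 to 0.214, and 4 of 9 libraries correlated best with their own number. With the replicate block the falls numbered 1 (P7 to P14), 0 (P14 to P60) and 29 (P7 to P60, Ror2 being lost).

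The P7 minus P60 class differences were 32.4 points (ligands), 11.0 (receptors), 16.8 (inhibitors) and 27.9 (R-spondins). In the same order they were 61.3, 20.9, 37.6 and 43.6 with 1 kb windows and 3.97, 2.45, 2.27 and 6.03 at the same covered length. With coverage divided by the library mean they were 12, -1.12, -1.11 and 11.4 rescaled points. With 5 kb windows ligands, inhibitors and R-spondins had 20.9, 10.1 and 16.8, and at −log10 q of 4 they had 12.9, 10.1 and 17.0. Of 496 values of single named genes under these alternatives 429 kept their direction and side of the threshold, 55 lost it, 4 gained it and 8 reversed: at the same covered length Wnt1 (2.19), Wnt2b (3.53), Ror2 (0.317) and Dkk2 (6.06), and with coverage divided by the library mean Fzd6 (20.8), Ror2 (11.2), Dkk1 (11.2) and Dkk2 (6.81). Genes that left the test under a setting are not among the 496. At the same covered length 4 genes kept their result, 5 lost it and 4 reversed. At −log10 q of 4, 5 kept it and 5 lost it. Read depth is unknown and limits all counts, and no Kdm6b comparison could be run under any alternative.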
